A study of Homo sapiens with 4 samples.

Results

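The transforming growth factor beta (TGF-beta) pathway is described here through 10 of the 60302 genes in the deposited table: the ligand genes TGFB1, TGFB2 and INHBA, the receptor genes TGFBR1, TGFBR2 and TGFBR3, and the SMAD genes SMAD2, SMAD3, SMAD4 and SMAD7. They are the rows of the table with these symbols, and each symbol had 1 row. The set was chosen by the FPKM values of TGFBR1, about 3-fold lower after knockdown of hnRNPF, so the differences between the groups in these 10 genes are given as values with no test. All samples are HMLE, a cell line made by immortalizing mammary epithelial cells. In 2 samples the cells stably carried a lentiviral short hairpin RNA against HNRNPF (knockdown 1 and 2), and in the other 2 a non-specific hairpin (control 1 and 2). Series text counts a pair of lines per hairpin type and does not say whether the lines of a pair share a hairpin sequence or an infection. The product of HNRNPF, hnRNP F, binds G-rich RNA and takes part in alternative splicing, and the series concerns its action on RNA G-quadruplexes. PolyA-selected RNA was sequenced, and each gene has 1 value per sample in FPKM, which scale fragment counts by transcript length and by depth, so isoforms and exon usage were not analysed here.

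TGF-beta ligands bind the type II receptor TGFBR2, which phosphorylates and switches on the type I receptor TGFBR1. TGFBR1 in turn phosphorylates SMAD2 and SMAD3, which join SMAD4 and enter the nucleus to regulate transcription. SMAD7 is induced by the pathway and blocks it at the receptor. In mammary epithelium the pathway restrains proliferation and can drive the epithelial-mesenchymal transition.

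HNRNPF itself was at 18.7 and 16.6 FPKM in the knockdown samples and 154 and 153 FPKM in the controls, 8.71-fold lower. It was the 1 gene of 13110 tested that passed an adjusted p of 0.05 (limma, log2 fold change -3.05, SE 0.0986, adjusted p = 0.0251), which is 0.00763% of the genes tested. Leaving out control 1 gave an adjusted p of 0.290, and leaving out control 2 gave 0.103, both in limma. All 8 mammary epithelial markers examined were at or above 1 FPKM in every sample. Of 6 fibroblast markers, 5 were under 1 FPKM in every sample. The exception was THY1, at 15.1 and 17.1 FPKM in knockdown and 18.0 and 17.0 FPKM in controls. The sum of the 6 was 15.7 and 17.9 FPKM in knockdown and 19.0 and 17.7 FPKM in controls, nearly all of it THY1. Of 4 blood cell markers, 3 were under 1 FPKM in every sample, as were both endothelial markers in the table. The other blood cell marker, CD14, was at 1.43 and 0.699 FPKM in knockdown and 1.15 and 0.535 FPKM in controls. The depth is not listed. Read from the spacing of low values, with the commonest lowest step taken as 1 fragment, it came to about 80611967 and 84997629 fragments in the knockdown samples and 77397631 and 84229904 in the controls.

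TGFBR1 was the 1 gene of the 10 with a difference of at least 2-fold between the groups, and it was lower in both knockdown samples. Among tested genes 0.709% were at least 2-fold lower and 0.778% at least 2-fold higher. The ligand gene INHBA and the signal-transducing SMAD2 were higher in both knockdown samples by 1.38-fold and 1.35-fold. The co-receptor gene TGFBR3 was almost silent in every sample. The groups did not overlap for 5 of the 10 genes, against 34.6% of tested genes: TGFBR1 and TGFB2 were lower in both knockdown samples (17.1% of tested genes were), and INHBA, SMAD2 and TGFB1 were higher in both (17.5%). Nothing is read from these counts, since the set was chosen on the same contrast.

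TGFBR1 (ENSG00000106799.12, chromosome 9, 101866320 to 101916474 on the plus strand, GRCh37) encodes the type I receptor kinase. It stood at 4.18 FPKM in knockdown 1 and 3.39 FPKM in knockdown 2, against 10.8 FPKM in control 1 and 13.9 FPKM in control 2. The groups did not overlap, and the lowest control was more than 2-fold above the highest knockdown sample. The means were 3.79 ± 0.561 FPKM in knockdown and 12.4 ± 2.201 FPKM in controls (SD, n = 2 each), 3.26-fold lower in knockdown. In a bulk sample, fewer cells of a type and less RNA per cell cannot be told apart. The log2 ratio was -1.37 between the samples numbered 1 and -2.04 between those numbered 2. Of the 13110 tested genes, 20 (0.153%) were at least 3-fold lower in knockdown by mean FPKM, 13 of them (0.0992%) without overlap, and TGFBR1 had the ratio ranked 18 from the lowest. The next lower gene of the 10, TGFB2, was 1.43-fold lower. The only gene overlapping TGFBR1 in the table, RNA5SP290 on the opposite strand, was listed at 0 in all 4 samples.

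TGFBR2 (chromosome 3, 30647994 to 30735634 on the plus strand, GRCh37), the type II receptor kinase that ligands bind first, had 52.3 and 55.8 FPKM in the knockdown samples. It had 48.1 and 52.8 FPKM in the controls. The groups overlapped, and the ratio of means was 1.07. TGFBR3, which encodes the co-receptor betaglycan, lay between 0.0540 and 0.106 FPKM over the 4 samples and did not reach the minimum mean of 1 FPKM for testing. The receptor genes thus stood far apart in FPKM within each sample. FPKM are scaled for length, but the transcript lengths used are not known, since the annotation release is not stated. Comparisons of level between genes, here and below, are therefore approximate. TGFBR1 was at 7.999% and 6.08% of the TGFBR2 level in the knockdown samples, against 22.4% and 26.3% in the controls. The 2 knockdown values of this ratio lay below both control values. That follows from the TGFBR1 values, on which the set was chosen, over a TGFBR2 level that changed little.

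**Figure D1:**
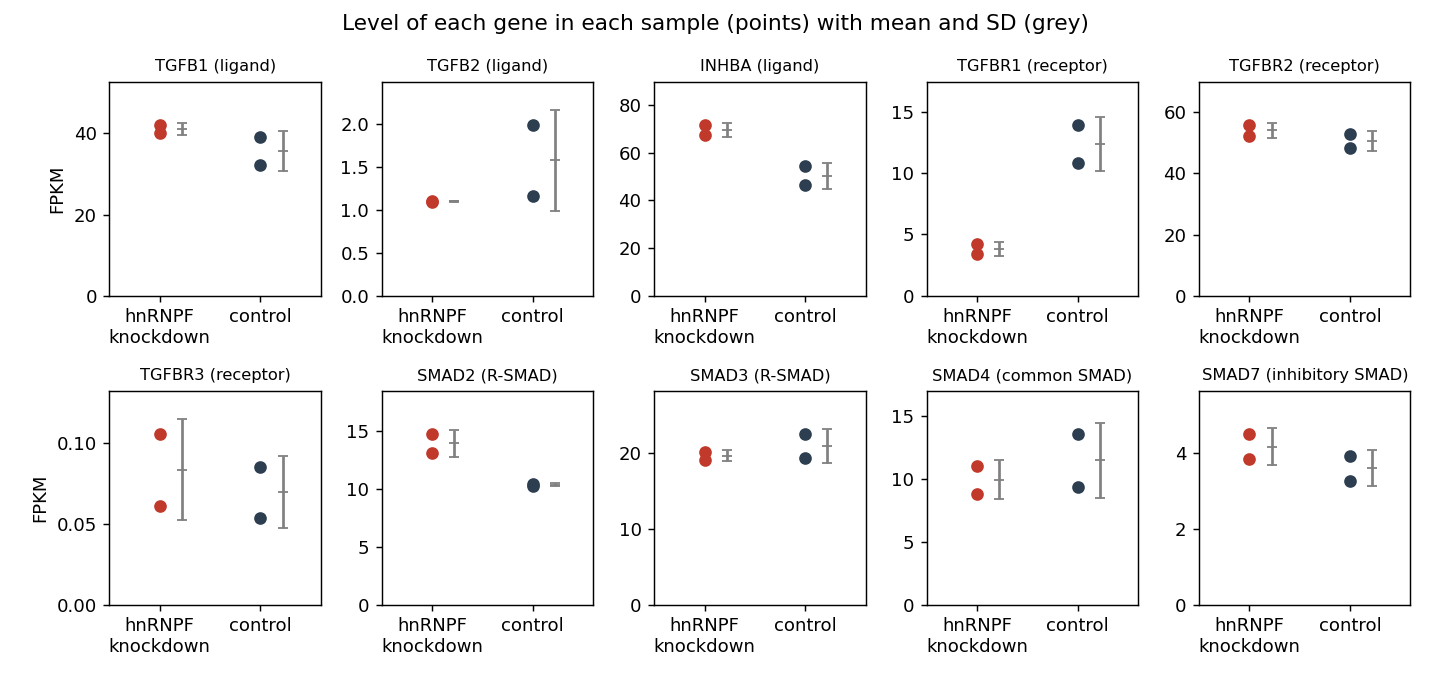
FPKM of the 10 genes in each sample, with hnRNPF knockdown samples in red and controls in dark blue, and the mean with its SD (n = 2) in grey beside each group; every axis starts at 0. TGFBR1 stands at 3.39 to 4.18 FPKM in knockdown and 10.8 to 13.9 FPKM in controls, while TGFBR2 stays between 48.1 and 55.8 FPKM in all 4 samples.

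Among the ligands, INHBA (chromosome 7, 41724712 to 41742706 on the minus strand, GRCh37) encodes the inhibin beta A subunit, which pairs with itself to form activin A. Activin A signals through its own receptors to SMAD2 and SMAD3. INHBA was at 67.4 and 71.6 FPKM in the knockdown samples, against 54.3 and 46.6 FPKM in the controls. Both knockdown values exceeded both control values, with means of 69.5 ± 2.97 and 50.4 ± 5.47 FPKM (SD, n = 2 each). Of the tested genes, 10.5% had a larger ratio of means in either direction. TGFB1 (chromosome 19, 41807492 to 41859816 on the minus strand, GRCh37), the most widely expressed TGF-beta ligand gene, was at 40.0 and 42.0 FPKM in knockdown and 32.2 and 39.1 FPKM in controls. Its groups were separated by less than 1 FPKM, and the log2 ratio of 0.20 became 0.07 without control 1 and 0.35 without control 2. CTC-435M10.3, which overlaps the TGFB1 locus on the other strand, was at 0.996 and 4.13 FPKM in knockdown and 0.0416 and 0.0856 FPKM in controls. Whether reads were counted by strand is not given in the sources used here. With all overlapping genes on either strand added to TGFB1 the log2 ratio was 0.11. The largest part of that sum was HNRNPUL1, at 77.3 and 91.0 FPKM in knockdown and 81.6 and 83.5 FPKM in controls. The ratio of 0.11 is therefore not one of TGFB1 and CTC-435M10.3 alone. TGFB2 (chromosome 1, 218519577 to 218617961 on the plus strand, GRCh37) was low, at 1.09 and 1.11 FPKM in knockdown and 1.99 and 1.16 FPKM in controls. Control 1 set that difference, since the log2 ratio was -0.52 with it and -0.08 without it.

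SMAD2 (chromosome 18, 45335328 to 45457517 on the minus strand, GRCh37) and SMAD3 encode the SMAD proteins that TGFBR1 and the activin receptors phosphorylate. SMAD2 stood at 13.1 and 14.7 FPKM in the knockdown samples and 10.2 and 10.4 FPKM in the controls. The groups did not overlap, the ratio of means was 1.35, and 12.0% of tested genes had a larger ratio in either direction. SMAD3 was at 19.1 and 20.1 FPKM in knockdown and 19.3 and 22.5 FPKM in controls, so its groups overlapped. SMAD2 was 0.687 and 0.732 of the SMAD3 level in knockdown, against 0.529 and 0.463 in controls. SMAD4, the shared partner of both, had 11.04 and 8.83 FPKM in knockdown and 13.6 and 9.37 FPKM in controls. In both groups the sample numbered 1 had more SMAD4 than the sample numbered 2. SMAD7, the inhibitory member, was at 3.82 and 4.50 FPKM in knockdown and 3.26 and 3.92 FPKM in controls. Its groups overlapped as well, and here the sample numbered 2 was the higher in each group.

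**Figure D2:**
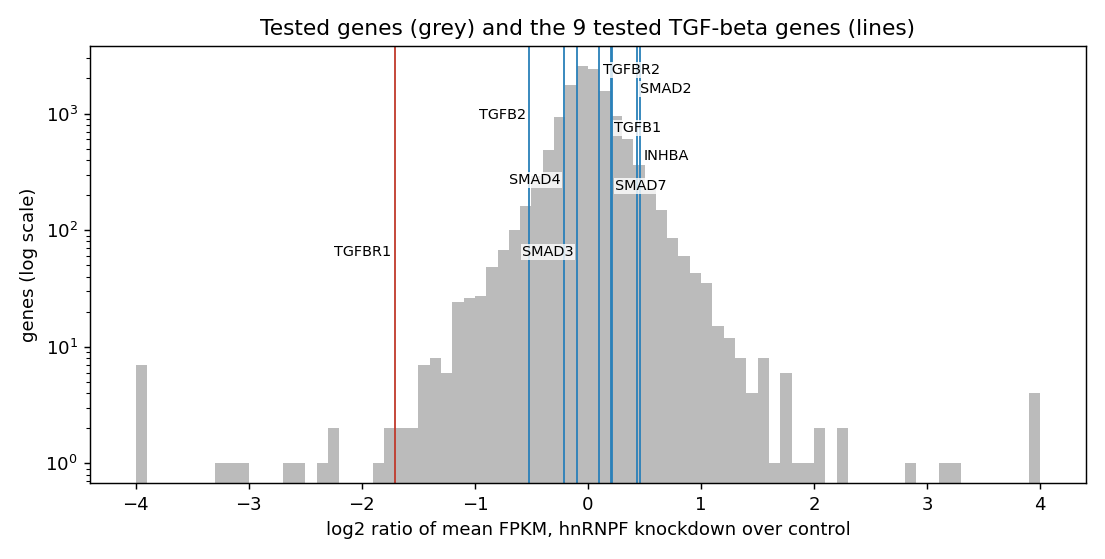
Histogram (log count axis) of the log2 ratio of mean FPKM, hnRNPF knockdown over control, for the 13110 tested genes, with lines at the 9 tested genes of the set; ratios beyond -4 or 4 are drawn in the outermost bars. TGFBR1 lies at -1.71 in the lower tail, and the other 8 lie between -0.52 and 0.46.

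Ordered by mean FPKM over the 4 samples, INHBA (59.98) and TGFBR2 (52.3) led and overlapped in range. TGFB1 (38.3) and SMAD3 (20.3) followed, each apart from its neighbours. SMAD2 (12.1), SMAD4 (10.7), TGFBR1 (8.07) and SMAD7 (3.87) formed a run in which each overlapped the next. TGFB2 (1.34) and TGFBR3 (0.0767) closed the order without overlap. TGFBR1 stood beside SMAD7 in the knockdown samples and beside SMAD2 and SMAD4 in the controls.

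Because the series concerns G-rich RNA, the coding sequences were searched on the sense strand for runs of at least 3 G (GGG). One GENCODE 29 transcript was used per gene. Introns and UTRs were not searched for G runs, so the densities describe coding sequence only. TGFBR1 held 5.95 such runs per kb of coding sequence, against a median of 11.9 in the 11403 tested genes with a sequence, and 12.0% of those genes had a lower density. The density was below the median in 6 of the 10 genes, among them SMAD4 (5.43 per kb), TGFB2 (7.23 per kb) and SMAD2 (7.83 per kb), whereas SMAD7 (19.5 per kb) lay above 86.1% of the tested genes. INHBA had 15.6 and TGFBR2 13.5 runs per kb. A looser pattern, at least 4 runs of at least 2 G with loops of 1 to 7 bases, was present in all 10 genes and in 86.2% of tested genes, so it does not set them apart. In TGFBR1 it includes a repeat near the start of the coding sequence (from base 51) and a stretch from base 659; the first match in TGFBR2 (from base 3) and a match in INHBA (from base 816) are shown for comparison, each as the whole match in capitals, from GENCODE 29 on GRCh38.
TGFBR1, chr9:99105256-99105281, plus strand: GGCGGCGGCGGCGGCGGCGGCGGCGG
TGFBR1, chr9:99137943-99137961, plus strand: GGAGAGGAAAGTGGCGGGG
TGFBR2, chr3:30606886-30606913, plus strand: GGGTCGGGGGCTGCTCAGGGGCCTGTGG
INHBA, chr7:41690092-41690115, minus strand: GGGCGGAGGTGAAGGTGGGGCAGG
These matches are letters in a reference transcript, and binding by hnRNP F was not measured in these samples.

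The 3′ UTRs were searched on the sense strand for 4 heptamers. The first is CACTCAC, and ACTCACA is the same site moved on by 1 base. The other pair, TCTAAGT with its shifted form CTAAGTA, overlaps in the same way. An earlier scan of these same FPKM values had picked them as going with lower levels in knockdown, so a match is no independent evidence. TGFBR1 holds TCTAAGT and CTAAGTA joined in 1 site, from base 942 of a 3′ UTR of 4887 bases. The joined site was present in 2.72% of 11307 tested genes with a 3′ UTR, and in 6.75% of the 978 whose 3′ UTR was within 25% of that length. HNRNPF also holds TCTAAGT, a heptamer found in 9.27% of 3′ UTRs. Any of the 4 was present in 6 of the 10 genes, against 23.9% of all 3′ UTRs. The members' 3′ UTRs differ in length, from 729 bases in TGFB1 to 32870 in SMAD2, and among the 978 close to TGFBR1 in length the share was 56.5%. The sites of HNRNPF, TGFBR1 and the others with a single site are given with 10 bases on each side, on GRCh38, and capitals mark the heptamers.
HNRNPF, chr10:43386369-43386395, minus strand: agtgatgttaTCTAAGTttaagtagtt
TGFBR1, chr9:99150237-99150264, plus strand: aattgtgttgTCTAAGTAtacttttaaa
TGFBR2, chr3:30692215-30692241, plus strand: ggccatggaaCTAAGTAcagtggcact
TGFB2, chr1:218442496-218442523, plus strand: ttttaatgatCACTCACAaatgtatgtt
SMAD3, chr15:67194865-67194891, plus strand: aagaagccttCACTCACcttcactgct
SMAD4 has a CTAAGTA and, apart from it, a TCTAAGT, and SMAD2 has 12 matches in an annotated 3′ UTR of 32870 bases. TGFB1, INHBA, SMAD7 and TGFBR3 have none. Of the 6 genes with a match, TGFBR1 and TGFB2 were lower in both knockdown samples and SMAD2 was higher in both. TGFBR2, SMAD3 and SMAD4 had overlapping groups. Nothing is read from this split, since the heptamers were picked on these same values. Without control 1 the log2 ratio of TGFB2 was only -0.08. The sequence of the hairpin was not used here, and its part in the TGFBR1 level was not tested.

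The 5 protein-coding genes whose profile lay nearest to that of TGFBR1 were UBE2B, CYB5B, HADHB, TMEM265 and PJA1. Likeness was the Euclidean distance between profiles of log2(FPKM + 1), each minus its own mean, over the 4 samples, and ran from 0.303 to 0.376. With 4 samples this mainly finds genes that were lower in knockdown by a like amount on that scale. UBE2B, a ubiquitin-conjugating enzyme, was at 12.4 and 12.4 FPKM in knockdown and 34.5 and 34.3 FPKM in controls. CYB5B, an outer mitochondrial membrane cytochrome b5, was at 10.4 and 11.6 FPKM in knockdown and 25.2 and 32.7 FPKM in controls. HADHB, a subunit of the mitochondrial trifunctional protein of fatty acid oxidation, was at 20.0 and 22.1 FPKM in knockdown, against 48.9 and 58.2 FPKM in controls. HADHA, which overlaps HADHB on the opposite strand, was at 83.0 and 94.5 FPKM in knockdown and 81.4 and 96.7 FPKM in controls. How that overlap was counted is not given. PJA1, a RING ubiquitin ligase, was at 2.69 and 2.92 FPKM in knockdown and 7.74 and 8.24 FPKM in controls. TMEM265, at 0.148 and 0.206 FPKM in knockdown and 2.64 and 2.91 FPKM in controls, overlaps SRCAP and 2 other genes on the same strand, so its values are uncertain. By mean FPKM it was 15.7-fold lower in knockdown, against 3.26-fold for TGFBR1, and the 1 added to FPKM shrinks that gap. It reached the mean for testing through the controls only. Of these 5, HADHB alone holds any of the heptamers, CACTCAC and ACTCACA joined in 1 site.

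**Figure D3:**
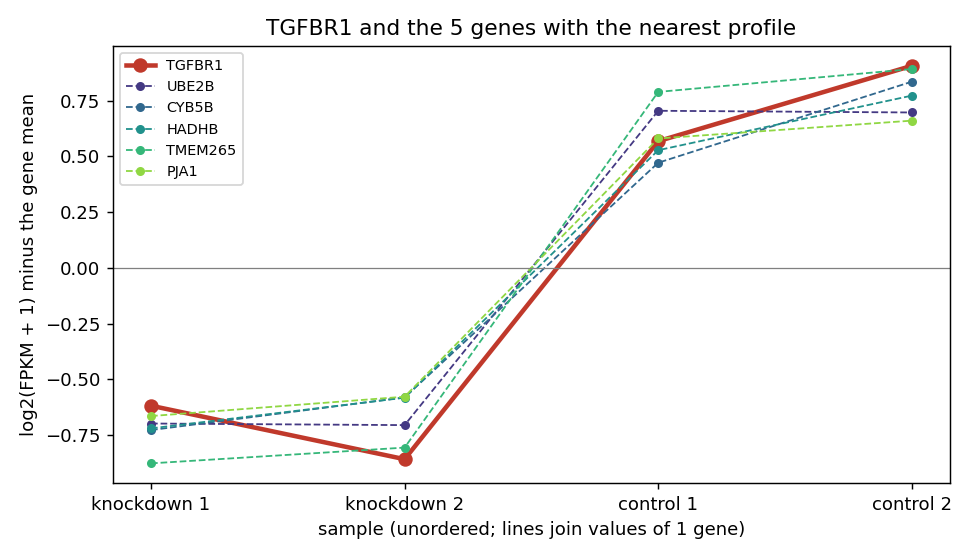
Log2(FPKM + 1) minus the gene's own mean in the 4 samples for TGFBR1 (thick red line) and the 5 genes with the nearest profile (dashed); lines join values of 1 gene and carry no order. All 6 genes lie below 0 in both knockdown samples and above 0 in both controls, which follows from how they were chosen.

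The rest of the pathway was examined through 87 genes in 5 lists, of which 68 had a mean of at least 1 FPKM and were tested. In limma 0 of them passed over all genes, in either direction; at an unadjusted p under 0.05 there were 5 higher and 1 lower, against 401 higher and 396 lower among all 13110. The smallest adjusted p was 0.586. Errors of fold changes from here on are SEs, on the log2(FPKM + 1) scale. Without overlap between the groups, 20 of the 68 were higher and 6 lower in knockdown, against 17.5% higher and 17.1% lower among all tested genes.

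Among 10 tested genes of ligand latency and activation, 4 were higher and 1 lower without overlap (17.5% and 17.1% of all tested genes). The median log2 fold change was 0.16, against 0.00120 for all genes. FURIN, a protease that cuts TGF-beta precursors, had the smallest p. It was at 22.7 and 28.9 FPKM in knockdown, against 41.1 and 45.0 FPKM in controls (limma, log2 fold change -0.72, SE 0.148, adjusted p = 0.586). ITGAV, an integrin subunit that with ITGB6 activates latent TGF-beta, was at 55.5 and 52.5 FPKM in knockdown and 45.3 and 44.7 FPKM in controls (limma, log2 fold change 0.26, SE 0.0884, adjusted p = 0.806). ITGB6 was at 39.8 and 41.9 FPKM in knockdown, against 35.1 and 38.2 FPKM in controls. THBS1, a matrix protein that can activate latent TGF-beta, was the most abundant of the list, at 226 and 308 FPKM in knockdown and 229 and 278 FPKM in controls, with overlapping groups.

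The activin and nodal list had 6 tested genes and a median log2 fold change of -0.07. FST and FSTL3 encode secreted proteins that bind activin. FST was at 42.1 and 31.9 FPKM in knockdown and 36.4 and 40.3 FPKM in controls. FSTL3 was at 11.8 and 8.91 FPKM in knockdown and 41.7 and 8.41 FPKM in controls, so control 1 alone stood apart. ACVR1B, the type I receptor for activin, was at 7.19 and 10.1 FPKM in knockdown and 10.6 and 7.68 FPKM in controls. GDF11, another ligand of the activin branch, was at 2.41 and 2.91 FPKM in knockdown, against 3.19 and 3.67 FPKM in controls, without overlap (limma, adjusted p = 0.908). SARNP, which overlaps the GDF11 locus on the opposite strand, was at 43.7 and 43.4 FPKM in knockdown and 49.5 and 41.3 FPKM in controls.

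Receptor partners showed the smallest spread of the 5 lists, with limma log2 fold changes between -0.11 and 0.15 for 8 tested genes. FKBP1A, which binds the type I receptor and holds it inactive, was at 60.4 and 66.3 FPKM in knockdown and 64.1 and 61.8 FPKM in controls. CD109, a TGF-beta co-receptor, was at 42.9 and 37.3 FPKM in knockdown and 43.5 and 37.3 FPKM in controls. STRAP, a receptor-binding protein, was at 100.3 and 129 FPKM in knockdown and 123 and 107 FPKM in controls. ENG, the co-receptor endoglin, was at 18.0 and 16.0 FPKM in knockdown and 15.3 and 15.1 FPKM in controls. TGFBRAP1, a receptor-associated protein gene, was at 11.4 and 9.44 FPKM in knockdown and 11.5 and 11.1 FPKM in controls.

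Of 18 tested SMAD partners and regulators, 3 were higher and 3 lower without overlap, shares close to the 17.5% and 17.1% of all tested genes, and the median log2 fold change was 0.04. PPM1A, a phosphatase of SMAD2 and SMAD3, was at 6.77 and 7.19 FPKM in knockdown and 9.50 and 8.51 FPKM in controls (limma, log2 fold change -0.33, SE 0.132, adjusted p = 0.832). USP11, a deubiquitinase, was at 10.95 and 10.2 FPKM in knockdown and 8.15 and 8.70 FPKM in controls. TGIF1, a SMAD co-repressor, was at 25.6 and 27.7 FPKM in knockdown, against 21.8 and 23.6 FPKM in controls. USP9X, which removes ubiquitin from SMAD4, was at 41.5 and 36.1 FPKM in knockdown and 39.4 and 35.6 FPKM in controls. STUB1, a ubiquitin ligase, was at 29.2 and 32.1 FPKM in knockdown and 31.4 and 34.2 FPKM in controls. JMJD8, which overlaps STUB1 on the opposite strand, was at 21.8 and 13.8 FPKM in knockdown and 19.8 and 14.2 FPKM in controls. SMAD5, a SMAD of the BMP branch singled out after its values were seen, was at 16.7 and 4.97 FPKM in knockdown and 27.96 and 20.8 FPKM in controls (limma, log2 fold change -1.29, SE 0.548, adjusted p = 0.840).

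The TGF-beta target list had 26 tested genes, of which 12 were higher and 1 lower without overlap, against 17.5% and 17.1% of all tested genes. The median log2 fold change was 0.20, and 18 of the 26 were above 0, as were 6586 of all 13110. No test of the list was made, and of its genes 0 passed singly. ADAM19, a membrane metalloproteinase, was at 15.7 and 13.5 FPKM in knockdown and 9.17 and 9.22 FPKM in controls (limma, log2 fold change 0.61, SE 0.129, adjusted p = 0.608). NIPAL4, which overlaps ADAM19 on the opposite strand, was at 18.5 and 19.1 FPKM in knockdown and 13.1 and 18.3 FPKM in controls. How that overlap was counted is not given. PMEPA1, a feedback inhibitor induced by the pathway, was at 13.0 and 13.7 FPKM in knockdown and 9.28 and 9.92 FPKM in controls (limma, log2 fold change 0.44, SE 0.116, adjusted p = 0.724). FN1, which encodes fibronectin, was at 1482 and 2105 FPKM in knockdown and 1179 and 1353 FPKM in controls. CDKN1A, a cell cycle inhibitor gene also induced by p53, was at 111 and 234 FPKM in knockdown and 204 and 289 FPKM in controls.

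**Figure D4:**
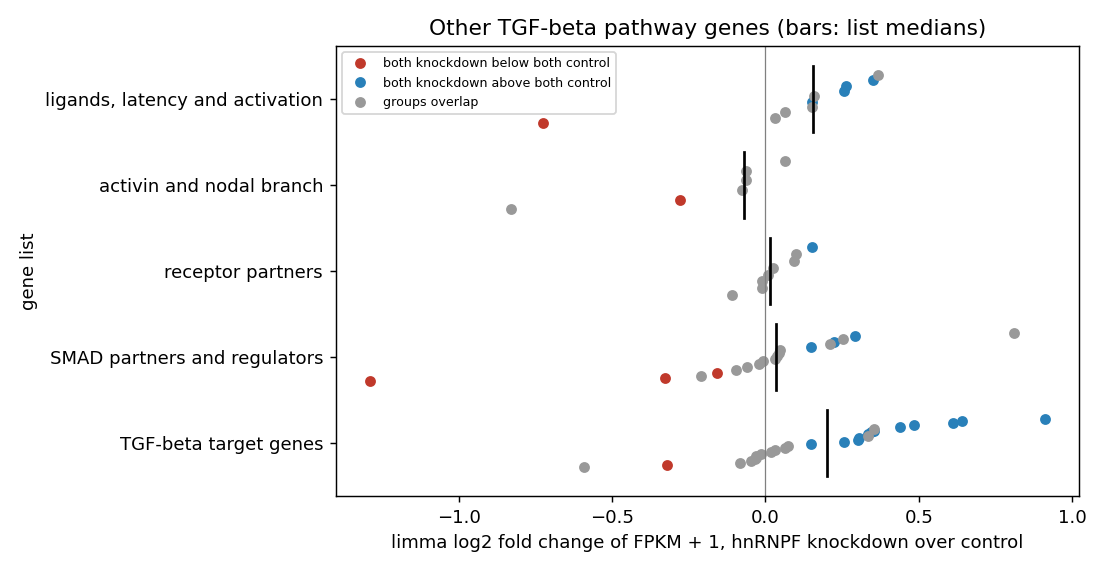
Limma log2 fold change of FPKM + 1, hnRNPF knockdown over control, for the 68 tested genes of the 5 pathway lists, coloured by whether the groups overlap; black bars are list medians. The receptor partners lie between -0.11 and 0.15, and the target list has 12 genes with both knockdown samples above both controls (17.5% of all tested genes) and a median of 0.20.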

How the data were processed

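The authors' deposited table gives FPKM for each gene, 1 column per sample, per the file headers. STAR 2.5.3a, Cuffdiff 2.2.1 and GRCh37 are listed, with no role, in the submitters' processing notes. Neither annotation release nor strand setting is stated there. Per the labels' protocols, libraries were stranded, paired-end and polyA-selected. The way fragments were assigned where genes overlap also affects FPKM. In single-exon genes 32.8% to 37.7% of low values were whole multiples of the lowest step within 0.02, so whole reads could not be recovered and count models were left out.

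Genes averaging 1 FPKM or more (13110) were compared as log2(FPKM + 1) with limma 3.58.1 (R 4.3.3), on all 4 samples with an intensity trend and no covariate, two-sided, with Benjamini-Hochberg adjustment. With 2 samples a group, 0.333 is the smallest p of an exact permutation test. Separate cultures are not stated, so the p-values reflect spread among the deposited samples, which may be technical. Folds of the 10 genes are ratios of mean FPKM. On 10 simulated tables of 13110 genes with 200 changed, 71.7% of 2-fold changes and 97.3% of 4-fold changes were recovered, and unchanged genes gave an average of 12.8 calls a table. The noise was normal, with variances that limma had already smoothed, and only genes with a mean log2(FPKM + 1) above 2 were changed. These shares are therefore not the power in the real table, and its 1 call does not show that 2-fold changes were absent.

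The members and lists were chosen with earlier results of these data known. Genes named are HNRNPF, the 10 members, in each list the 3 highest by mean and the 2 with the smallest p, and the 5 nearest to TGFBR1; 1 gene of the target list that this rule picks is not reported here. Overlapping genes are also named, and SMAD5, MMP2, SMAD9, INO80B-WBP1 and BLOC1S5-TXNDC5 were named after their values were seen. Transcript sequences are from GENCODE 29 (GRCh38), 1 transcript per gene, preferring the APPRIS principal one, and gene loci are from the table (GRCh37). Alternatives were other pseudocounts, filters and scalings, no trend, a replicate block, sums with overlapping genes and leaving out each sample. Python 3.11.15 with pandas 2.3.3 and matplotlib 3.10.9 was used.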

Additional observations from a re-analysis of the deposited data

How the results depend on the processing

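The log2 ratio of TGFBR1 was -1.71 and lay between -1.88 and -1.48 over all 10 alternatives, and between -1.88 and -1.51 when a sample was left out. Sums with overlapping genes could not move it, since the only such gene was listed at 0 in every sample. TGFBR1 was chosen on this ratio, so the range is a description only. Of the 9 other members, 6 kept their sign in every alternative and SMAD3, SMAD4 and TGFBR3 did not; sums with genes on either strand were chosen after seeing the data. The count of genes past the threshold was 1 (HNRNPF), and 0 with no filter, with no intensity trend or with the replicate block. It was 2 with median-ratio scaling, which added INO80B-WBP1, and 0 to 2 when a sample was left out, where BLOC1S5-TXNDC5 joined without knockdown 2; the cause was not tested. The adjusted p of HNRNPF in limma was 0.259 with no filter, 0.0995 with no trend and 0.164 with the replicate block. Its log2 fold change of -3.05 cannot change under those settings. It ranged from -3.13 to -2.98 when a sample was left out, with a lone sample assumed to vary like the other group. Over all its alternatives the adjusted p ran from 0.0126 to 0.290. No pathway gene outside the 10 passed in any alternative. Deviations of same-numbered samples correlated at 0.39 over tested genes, and the main fit leaves any such shared part in its error. With a pair in each group the numbers are not taken as pairing the samples. With the replicate block, limma gave 972 genes higher and 818 lower at an unadjusted p under 0.05, against 401 and 396 without it. Among tested pathway genes these were 16 and 6, against 5 and 1. For TGFBR1 the mean of the log2 ratios of same-numbered samples was -1.70, a value that is the same whichever way the samples are paired. Depth limits genes such as TGFBR3, at 0.0540 FPKM in control 1, most.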

Other observations

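Of the pathway genes with a mean under 1 FPKM, which were not tested, 2 were singled out after their values were seen. MMP2, a matrix metalloproteinase gene of the target list, was at 1.37 and 1.38 FPKM in knockdown and 0.713 and 0.511 FPKM in controls. SMAD9, a SMAD of the BMP branch, was at 0.490 and 0.454 FPKM in knockdown and 0.177 and 0.164 FPKM in controls. Both knockdown samples exceeded both controls for each gene, as they did for 17.5% of tested genes, and nothing is read from these picks. Other untested pathway genes, at lower levels, also had groups without overlap, in either direction. The activin-branch genes TDGF1 and LEFTY2 were listed at 0 in all 4 samples.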
